A study of Rattus norvegicus with 82 samples.

Results

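Intercalated disc junction genes are described here in cardiomyocytes of the right ventricle (RV) and left ventricle (LV) of rats with banded or sham-operated great vessels. The genes were chosen by name, as the 10 symbols Gja1, Gja5, Gjc1, Dsp, Pkp2, Jup, Dsg2, Dsc2, Cdh2 and Tjp1, and of these 8 were found among the 17337 genes of the count table. Dsp and Dsg2 were not analysed here. The animals were F1 offspring of Wistar Kyoto mothers and Lewis fathers, and each of 41 rats gave 1 RV and 1 LV library. The groups were Sham-H (n = 7), PAB-H (n = 6) and AOB-H (n = 6) at the compensated, hypertrophic stage and Sham-F (n = 9), PAB-F (n = 6) and AOB-F (n = 7) at the decompensated, failing stage. PAB is a band on the pulmonary artery, which loads the RV, and AOB a band on the aorta, which loads the LV. By the labels the H animals were 11 weeks old after 7 weeks of treatment, the Sham-F and AOB-F animals 31 weeks old after 26 weeks, and the PAB-F animals 28 weeks old after 22 weeks. PAB-F animals were thus younger than their Sham-F controls, and the study's methods state other ages than the labels. Males numbered 3 in Sham-H, 4 in PAB-H, 2 in AOB-H and 4 in each F group. In every condition the cells came from enzymatic digestion of the perfused heart, followed by separation from other cells in centrifugation steps.

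The intercalated disc joins neighbouring cardiomyocytes end to end. Gap junctions, built from connexins, pass current between the cells. Desmosomes anchor intermediate filaments through cadherins (Dsc2, Dsg2), armadillo proteins (Pkp2, Jup) and desmoplakin (Dsp), and adherens junctions anchor actin through N-cadherin. Loss-of-function variants in desmosomal genes are a known cause of arrhythmogenic cardiomyopathy.

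Library totals on genes lay between 6675287 and 19665439 counts (median 13074485.5). All 8 genes passed the filter on low counts and were among the 11954 genes tested, and none had a count of 0 in any library. The 9 ventricular cardiomyocyte markers took 5.30% to 12.1% of the counts in each library. The 7 endothelial markers took 0.0689% to 0.561%, so that RNA of other cells was present. On the first principal component of all genes tested, which held 46.96% of the variance, LV libraries of the F groups scored high (median 66.7) and LV libraries of the H groups low (median -16.05). 5 LV libraries lay across the midpoint of 25.3. They were Sham-H replicates 4 and 5 and PAB-H replicate 2, with scores of 75.5, 36.8 and 66.3, and AOB-F replicate 5 and PAB-F replicate 5, with 25.1 and 2.75. The RV libraries reached 6.90 at most. The main results that use these libraries are also given without them.

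Levels per gene length differed widely within the set. Gja1, which encodes connexin 43, the main ventricular connexin, had the highest mean FPKM (fragments scaled to gene length and library size) over the 82 libraries, 380. Jup (plakoglobin, which binds desmosomal and classical cadherins) followed with 142, Cdh2 (N-cadherin) with 126, Pkp2 (plakophilin 2) with 64.96 and Tjp1 (ZO-1, a scaffold that binds connexin 43) with 33.4. Gjc1 (connexin 45) stood at 10.02, Dsc2 (desmocollin 2) at 9.10 and Gja5 (connexin 40, known for atrial, conduction system and arterial endothelial cells) at 4.59. Gja1 thus lay far above the other connexins, while the desmosomal cadherin Dsc2 lay far below the armadillo protein Jup. Jup over Dsc2 and Gja1 over Gja5 are followed below as ratios of FPKM within a library. All other levels are normalized counts, meaning raw counts over the effective library size of edgeR, multiplied by its mean. They compare libraries for 1 gene, not genes with each other.

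Promoters of 3 members are shown because these genes differed between the ventricles in opposite directions, Gja1 higher in the RV and Gja5 and Jup higher in the LV of the older animals. The windows are from RefSeq (GRCr8), cover 250 bases before to 50 bases after the transcription start on the gene's strand, and mark in capitals every match to the motifs searched. Gja1 lies at chr20:36302314-36302613 (plus strand), Gja5 at chr2:187290977-187291276 (plus strand) and Jup at chr10:85827380-85827679 (minus strand).
Gja1: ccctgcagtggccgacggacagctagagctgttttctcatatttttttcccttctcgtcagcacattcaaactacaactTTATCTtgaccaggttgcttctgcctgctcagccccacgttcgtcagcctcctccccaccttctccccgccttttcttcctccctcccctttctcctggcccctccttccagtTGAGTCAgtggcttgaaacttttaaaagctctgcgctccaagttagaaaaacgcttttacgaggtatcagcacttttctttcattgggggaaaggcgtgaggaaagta
Gja5: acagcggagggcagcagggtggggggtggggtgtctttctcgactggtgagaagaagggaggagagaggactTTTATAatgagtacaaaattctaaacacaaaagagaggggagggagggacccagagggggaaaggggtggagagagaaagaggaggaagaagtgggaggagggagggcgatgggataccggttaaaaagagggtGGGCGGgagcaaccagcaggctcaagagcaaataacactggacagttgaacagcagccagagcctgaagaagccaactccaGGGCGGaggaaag
Jup: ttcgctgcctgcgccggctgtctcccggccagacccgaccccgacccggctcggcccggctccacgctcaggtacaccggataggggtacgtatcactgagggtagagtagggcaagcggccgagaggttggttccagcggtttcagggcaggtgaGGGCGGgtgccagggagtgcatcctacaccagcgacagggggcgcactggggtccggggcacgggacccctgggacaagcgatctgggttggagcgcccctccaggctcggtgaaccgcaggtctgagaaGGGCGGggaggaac
RefSeq windows matched 7 of the 10 symbols (Gja1, Gja5, Dsp, Jup, Dsg2, Dsc2, Tjp1). The AP-1 heptamer TGAGTCA stood in the Gja1 window, 58 bases before the start, and in 4.63% of all 33469 windows of this length, on either strand. The GATA motif AGATAA, found in reverse in the Gja1 window, was held by 11.6% of all windows. The Sp1 GC box GGGCGG, present in Gja5, Dsp, Jup, Dsg2 and Dsc2, was held by 33.1%. The TATA motif TATAAA, in reverse in the Gja5 window, was held by 14.2%. The NKX2-5 motif TNAAGTG and the MEF2-like run TATTTNTA, both in the Tjp1 window, were held by 11.5% and 6.44%, and the T-box half-site GGTGTGA, in none of the 7, by 3.83%. Guanine and cytosine made up 50.3% of the Gja1 window, 55.3% of the Gja5 window and 69% of the Jup window. These matches are descriptions of letters and were not tied to any factor.

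First, RV and LV cardiomyocytes of the same sham-operated animals were compared. In Sham-F, 7 of the 8 genes differed at an adjusted p under 0.05 (edgeR quasi-likelihood test, Benjamini-Hochberg over 11954 genes), which is to be read against 74.3% of all genes called in this comparison. Gja1, Pkp2, Dsc2, Cdh2 and Tjp1 were higher in the RV, and Gja5 and Jup were higher in the LV. The median absolute log2 fold change over all genes tested was 0.72. How many of all genes did not overlap between groups, or had the same direction in every animal, was not counted in any comparison. Such statements below therefore describe the values of single genes and are not a trait of this set.

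Among the gap junction genes, Gja1 ranged from 14037 to 27752 (median 20825) in RV Sham-F and from 5225 to 10785 (median 8131) in LV Sham-F. The 2 groups did not overlap, and Gja1 was higher in the RV of 9 of 9 animals. The fold was 2.56 (log2 1.35 ± 0.18 SE, adjusted p = 6.31e-10). Gja5 went the other way, with 89.0 to 194 (median 123) in the RV and 160 to 374 (median 266) in the LV. It was lower in the RV of 9 of 9 animals (log2 -1.06 ± 0.22 SE, adjusted p = 1.74e-05), although the groups overlapped. Gjc1, a connexin of the conduction system and embryonic myocardium, ranged from 146 to 262 (median 233) in the RV and from 156 to 226 (median 162) in the LV. Its difference missed the threshold (log2 0.26, 95% confidence interval -0.00 to 0.53, adjusted p = 0.0694), but passed it with the animal as a block (log2 0.26, adjusted p = 0.041). The difference was also called with a correction for gene length and without a filter on low counts. Gja1 over Gja5 in FPKM had a median of 136 in RV Sham-F and of 29.6 in LV Sham-F.

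The 3 desmosomal genes differed in direction. Dsc2 ranged from 670 to 819 (median 731) in RV Sham-F and from 211 to 334 (median 279) in LV Sham-F. There was no overlap, and the fold of 2.66 was the largest of the 8 genes in this comparison (log2 1.41 ± 0.18 SE, adjusted p = 5.33e-11). Pkp2 ranged from 1910 to 2414 (median 2046) in the RV and from 998 to 1591 (median 1241) in the LV, again without overlap (log2 0.71 ± 0.13 SE, adjusted p = 2.64e-06). Jup was the opposite. It ranged from 4357 to 6339 (median 4961) in the RV and from 7917 to 13414 (median 9024) in the LV. These groups did not overlap either, and Jup was lower in the RV of 9 of 9 animals (log2 -0.88 ± 0.10 SE, adjusted p = 1.2e-11).

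Cdh2, which links the actin filaments of neighbouring cells through catenins, ranged from 7994 to 11316 (median 9753) in RV Sham-F and from 2830 to 5251 (median 4018) in LV Sham-F. The groups did not overlap (log2 1.26 ± 0.16 SE, adjusted p = 4.22e-11). Tjp1 ranged from 3051 to 3796 (median 3333) in the RV and from 1145 to 4210 (median 1373) in the LV. The groups overlapped here because LV Sham-F replicate 3 had the highest Tjp1 of all Sham-F libraries, and Tjp1 was higher in the RV of 8 of 9 animals (log2 0.96 ± 0.18 SE, adjusted p = 2.26e-06). Cdh2 over Jup in FPKM was 1.26 to 1.68 in RV Sham-F and 0.212 to 0.460 in LV Sham-F, so that the 2 genes changed order between the ventricles.

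The direction was the same in both sexes, which were separated after the values had been seen. In Sham-F, the 7 genes called over all animals were each called in the 5 females (68.3% of all genes called) and in the 4 males (65.8%). The difference between the sexes was called for none of the 8 (0.00837% of all genes). Markers of other cells moved with the ventricle. All 7 endothelial markers were lower in the RV than in the LV of Sham-F (median log2 -2.05), as were all 5 arterial endothelial markers, a list that shares no gene with the 10 members. The summed endothelial share was 0.0689% to 0.114% in RV Sham-F and 0.228% to 0.406% in LV Sham-F. Ventricular cardiomyocyte markers summed to 9.59% to 11.7% and 7.60% to 9.19%. They were split as single genes, with 4 of 9 higher and 2 lower in the RV (median log2 0.016). The part of cell composition in the junction gene differences was not tested, and in such bulk samples fewer cells of a type and less RNA per cell cannot be told apart.

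**Figure D1:**
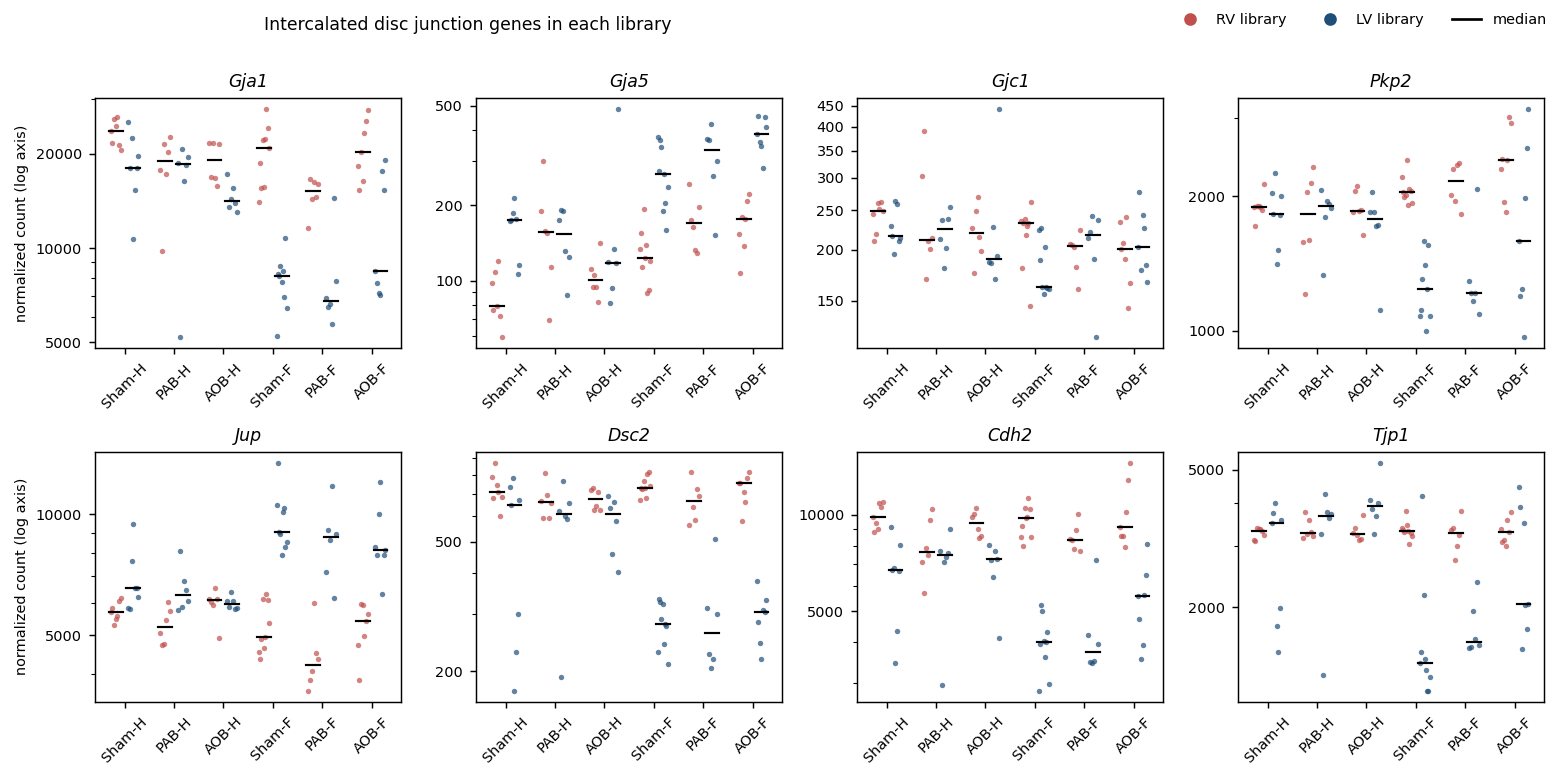
Normalized counts (log axis) of the 8 genes in the 82 libraries, by condition, with RV libraries in red, LV libraries in blue and a bar at each group's median. In Sham-F, RV and LV points are apart for Gja1, Pkp2, Jup, Dsc2 and Cdh2, whereas the H groups largely overlap. The share of all genes without overlap was not counted.

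At the H stage the ventricles were closer. In Sham-H, 3 of 8 genes were called, beside 21% of all genes. Gja5 ranged from 59.4 to 119 (median 79.4) in the RV and from 107 to 215 (median 174) in the LV, and was lower in the RV of 7 of 7 animals (log2 -0.90 ± 0.26 SE, adjusted p = 0.00941). Cdh2 ranged from 8824 to 10961 (median 9816) in the RV and from 3454 to 9152 (median 6710) in the LV, and was higher in the RV of 7 of 7 animals (log2 0.62 ± 0.17 SE, adjusted p = 0.00885). Dsc2 ranged from 597 to 871 (median 710) and from 174 to 782 (median 646) in the RV and LV (log2 0.52 ± 0.19 SE, adjusted p = 0.0447). The groups overlapped for all 3 genes. With the animal as a block Gja1 was called as well (log2 0.38, adjusted p = 0.040).

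These 3 calls depended on single libraries. Without the libraries across the midpoint none of the 3 genes was called, the log2 values being -0.78 for Gja5 (adjusted p = 0.093), 0.41 for Cdh2 (adjusted p = 0.114) and 0.21 for Dsc2 (adjusted p = 0.438). That choice leaves out LV Sham-H replicates 4 and 5, which scored highest in their group and above all RV libraries. It thus moves the ventricles together by itself. Without LV Sham-H replicate 4 alone, the adjusted p values were 0.0558, 0.0546 and 0.195. Dsc2 also lost its call without LV Sham-H replicates 5 or 6 (adjusted p of 0.148 and 0.104), without RV Sham-H replicates 1, 3, 4, 5 or 7 (adjusted p of 0.0525 to 0.0861) and without a filter on low counts (adjusted p = 0.0541). Dsc2 showed the split plainly, since LV Sham-H replicates 4, 5 and 6 had 174, 229 and 300 and the other 4 LV Sham-H libraries 646 to 782. Replicates 4 to 6 were female, as was replicate 7 with 669. In females of Sham-H 31.4% of all genes were called between the ventricles, among them Dsc2 (log2 0.999, adjusted p = 0.0014), Cdh2 (log2 0.88), Gja5 (log2 -0.90) and Tjp1 (log2 0.59). In males the share was 0.142% with none of the 8 among them, but the difference between the sexes was called for 0% of all genes by edgeR (1259 at an unadjusted p under 0.05), none of the 8 included. Endothelial markers summed to 0.335% in LV Sham-H replicate 4 and to 0.115% to 0.249% in the other 6 libraries of that group.

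In PAB-H, 0 of 8 genes were called by edgeR and by DESeq2 between the ventricles, where 0.125% of all genes were called. In AOB-H, also 0 of 8 were called by either tool, against 7.98% of all genes. At an unadjusted p under 0.05, Jup passed in PAB-H (log2 -0.30, 95% confidence interval -0.55 to -0.05), and Gja5 (log2 -0.69) and Cdh2 (log2 0.47) in AOB-H. Cdh2 did not overlap between RV AOB-H (8481 to 10498) and LV AOB-H (4125 to 8044), and was called with the animal as a block (log2 0.50, adjusted p = 0.0102) and without the libraries across the midpoint (log2 0.47, adjusted p = 0.025). Without LV AOB-H replicate 2, 1 member was called in AOB-H.

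In the F groups with a band the differences between the ventricles had the same signs as in Sham-F for the genes called. In PAB-F, 7 of 8 genes were called, beside 61.1% of all genes. Dsc2 ranged from 560 to 817 in RV PAB-F and from 205 to 507 in LV PAB-F (log2 1.18 ± 0.21 SE, adjusted p = 3.2e-06), and Jup from 3639 to 6025 and from 6178 to 11746 (log2 -0.97 ± 0.13 SE, adjusted p = 1.73e-08). Neither gene overlapped. The other genes called in PAB-F were Cdh2 (log2 0.99), Gja1 (log2 0.89), Tjp1 (log2 0.89) and Pkp2 (log2 0.67), higher in the RV, and Gja5 (log2 -0.85), lower. In AOB-F, 6 of 8 were called, beside 67.1% of all genes. Pkp2 among them (log2 0.41, adjusted p = 0.0145) lost its call without LV AOB-F replicates 3 or 4 (adjusted p of 0.0521 and 0.0708). In AOB-F, Gja5 ranged from 107 to 222 in the RV and from 281 to 455 in the LV without overlap (log2 -1.18 ± 0.25 SE, adjusted p = 2.86e-05). The counts were also 7 and 6 without the libraries across the midpoint, with Dsc2 in PAB-F at a log2 value of 1.41. That choice leaves out the LV libraries of these groups that scored nearest the RV, so it moves the ventricles apart by itself. The other genes called in AOB-F were Dsc2 (log2 1.29), Cdh2 (log2 0.92) and Gja1 (log2 0.83), higher in the RV, and Jup (log2 -0.73), lower. Tjp1 was not called in AOB-F (log2 0.28, 95% confidence interval -0.12 to 0.68), and Gjc1 was called in neither group.

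**Figure D2:**
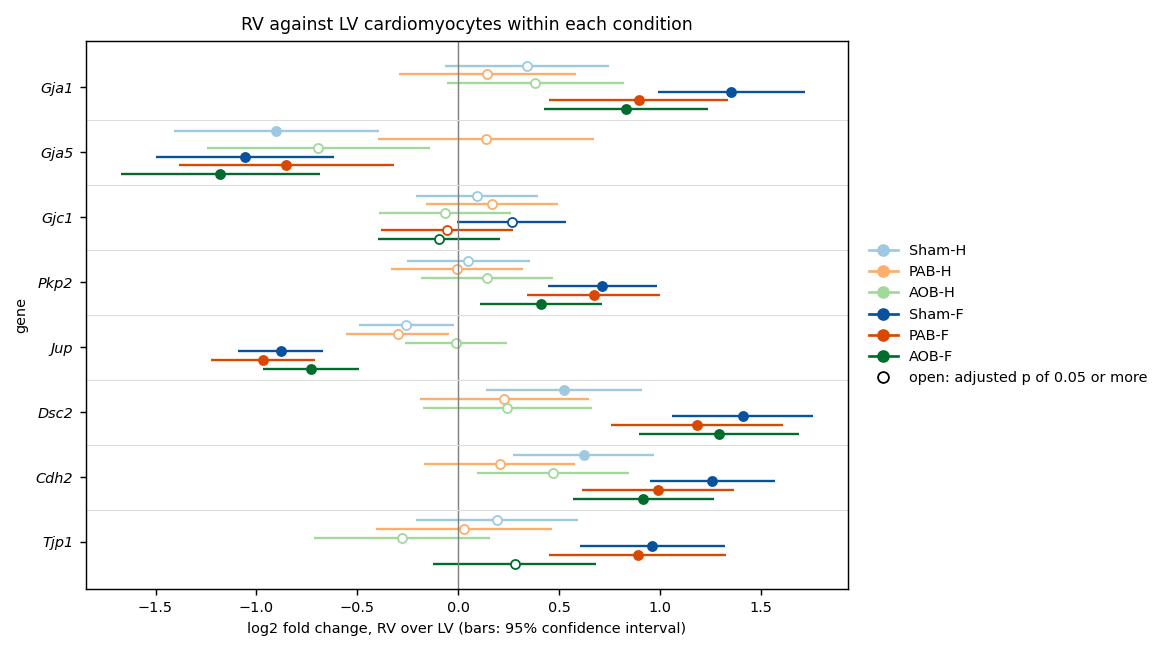
Log2 fold change of RV over LV (x axis) for each gene and condition, with 95% confidence intervals as bars and open circles for an adjusted p of 0.05 or more. Filled circles to the right are Gja1, Pkp2, Dsc2, Cdh2 and Tjp1 and to the left Gja5 and Jup, mostly in the F groups, with the largest value at 1.41 for Dsc2 in Sham-F.

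The sham groups of the 2 stages were then compared within each ventricle, so that age and the months since surgery cannot be told apart. In the RV 0 of 8 genes were called by edgeR and by DESeq2, beside 0.0502% of all genes, and Gja5 alone had an unadjusted p under 0.05 (log2 0.55, adjusted p = 0.893). In the LV 7 of 8 genes were called, beside 57.4% of all genes. This comparison and that of RV with LV in Sham-F share the LV Sham-F libraries, so the 2 sets of values are not independent.

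Gja1 fell in the LV from 10669 to 25230 (median 18003) in Sham-H to 5225 to 10785 (median 8131) in Sham-F (log2 -1.23 ± 0.19 SE, adjusted p = 6.99e-07), and 8 of the 9 Sham-F libraries lay below all Sham-H libraries. Dsc2 fell from a median of 646 to 279 (log2 -0.86 ± 0.18 SE, adjusted p = 7.58e-05) and Tjp1 from 3512 to 1373 (log2 -0.73 ± 0.19 SE, adjusted p = 0.000783). Cdh2 fell by 0.69 and Pkp2 by 0.54 on the log2 scale. Jup and Gja5 rose instead. Jup went from a median of 6541 to 9024 (log2 0.50 ± 0.11 SE, adjusted p = 0.000145) and Gja5 from 174 to 266 (log2 0.71 ± 0.23 SE, adjusted p = 0.0079). Gjc1 had medians of 216 and 162 (log2 -0.31, adjusted p = 0.0544). Its fall was called with a correction for gene length and without a filter on low counts. Without the libraries across the midpoint, a choice that itself moves the LV groups of the stages apart, the same 7 genes were called, with log2 values of -1.39 for Gja1, -1.17 for Dsc2, -0.97 for Tjp1, -0.91 for Cdh2, -0.65 for Pkp2, 0.60 for Jup and 0.83 for Gja5. Markers of other cells were also higher in LV Sham-F than in LV Sham-H, namely 4 of 7 endothelial, 4 of 5 arterial endothelial, 5 of 7 mural, 4 of 7 macrophage, 3 of 6 fibroblast, 2 of 4 Schwann cell, 2 of 4 atrial cardiomyocyte and 2 of 3 conduction system genes tested. Of 9 ventricular cardiomyocyte markers 2 were higher and 4 lower. The part of these shifts in the junction gene values was not tested.

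The change with stage differed between the ventricles for 6 of 8 genes, as an interaction in the same fit, beside 41.6% of all genes. The RV change less the LV change was 1.013 for Gja1 (adjusted p = 0.00263), 0.89 for Dsc2 (adjusted p = 0.00531), 0.77 for Tjp1, 0.66 for Pkp2, 0.64 for Cdh2 and -0.62 for Jup (adjusted p = 0.00161), on the log2 scale. For Gja5 it was -0.16 (95% confidence interval -0.83 to 0.51) and for Gjc1 0.17 (-0.23 to 0.57). Cdh2 lost the call without LV Sham-H replicate 1 (log2 0.53, adjusted p = 0.0643). The same 6 genes were called without the libraries across the midpoint, with Gja1 at 1.17, Dsc2 at 1.201 and Jup at -0.72. As above, that choice itself moves the LV groups of the stages apart. Within the sexes, the LV change was called for Gja1 in females (log2 -0.98, 25.3% of all genes called) and in males (log2 -1.53, 57.3%). Dsc2 was called in males (log2 -1.30) and not in females (log2 -0.37), where LV Sham-H held the 3 low libraries. The difference between the sexes, called for 2.72% of all genes, was called for none of the 8.

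Jup over Dsc2 in FPKM summed up the LV pattern library by library. The pair joins 2 genes that had differed in opposite directions between the ventricles in these same libraries. Its separation of the ventricles is therefore no added support. The ratio was 6.19 to 13.6 over the 41 RV libraries. In the LV it ranged from 32.3 to 60.6 (median 48.7) in Sham-F, from 15.96 to 70.8 (median 45.9) in PAB-F and from 26.9 to 72.5 (median 34.1) in AOB-F. Medians at the H stage were 12.8, 13.3 and 12.7 in LV Sham-H, PAB-H and AOB-H. The LV libraries of Sham-H with the numbers 4, 5 and 6 reached 71.03, 37.4 and 28.6, and LV PAB-H replicate 2 reached 55.4. Every LV library of the F groups lay above every RV library. The low end of that range, 15.96, was LV PAB-F replicate 5, 1 of the 5 libraries across the midpoint. The component holds both genes, so the 2 axes are not independent.

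**Figure D3:**
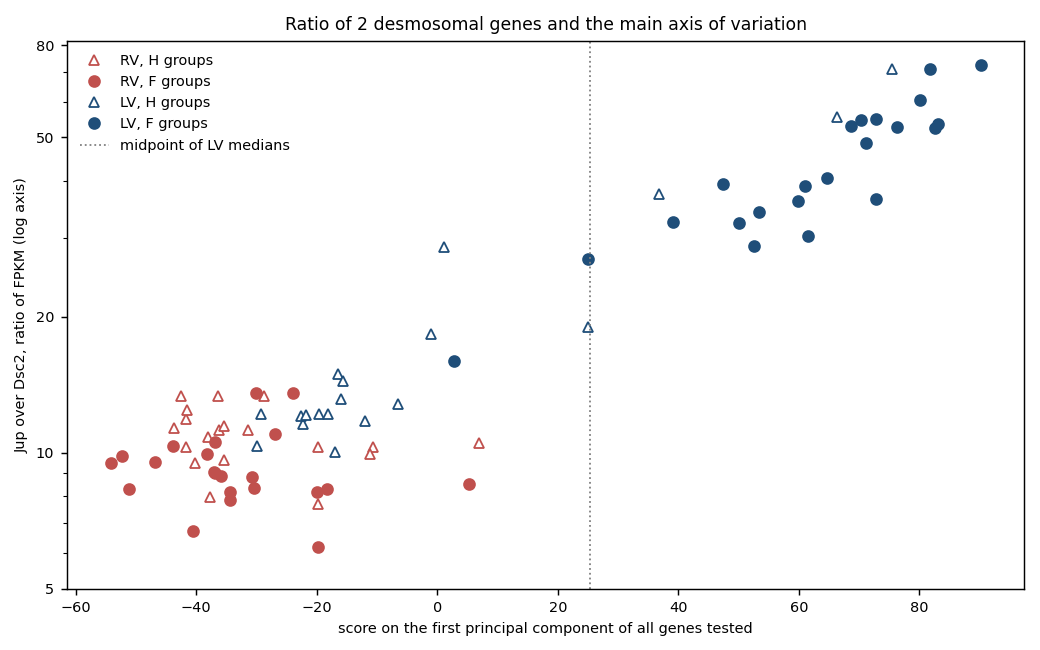
Ratio of Jup to Dsc2 in FPKM (log axis) against the score on the first principal component for 82 libraries, RV in red and LV in blue, open triangles for H groups and filled circles for F groups. RV ratios stay between 6.19 and 13.6, LV ratios of F groups lie between 15.96 and 72.5, and the dotted line marks the midpoint of 25.3 that 3 H libraries exceed.

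Loading the RV with PAB changed few of the genes. In RV PAB-H, Gja5 was called (1 of 8, beside 4.5% of all genes). It ranged from 69.4 to 300 (median 156) against 59.4 to 119 (median 79.4) in RV Sham-H, with 4 of 6 banded libraries above all sham libraries (log2 0.91 ± 0.26 SE, adjusted p = 0.034). Without RV PAB-H replicate 2, whose Gja5 of 300 was the highest, the log2 value was 0.64 (adjusted p = 0.387), and the call was lost too without RV PAB-H replicate 1 (adjusted p = 0.0693) or RV Sham-H replicates 2, 6 or 7 (adjusted p of 0.0561 to 0.0747). It was also lost with sex as a covariate (log2 0.83, adjusted p = 0.0592) and without a filter on low counts (log2 0.83, adjusted p = 0.054). In males Gja5 had a log2 value of 1.09 (adjusted p = 0.0379, 3.92% of all genes called) and in females of 0.14 (0.0418%), and the difference was called for 0% of all genes by edgeR (533 at an unadjusted p under 0.05). Fibroblast markers were higher for 6 of 6 genes tested in RV PAB-H and arterial endothelial markers for 2 of 5, their sums reaching 0.279% and 0.0344% of counts. Atrial cardiomyocyte markers were higher for 2 of 4 genes (median log2 1.57), with sums of 0.0149% to 0.0413% in RV PAB-H and 0.0019% to 0.00466% in RV Sham-H, and conduction system markers for 0 of 3 by edgeR. The atrial list includes Nppa and Myl4, which the paper counts among its PAB-regulated genes of ventricular cardiomyocytes. The part of these markers in the Gja5 value was not tested.

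In RV PAB-F, 0 of 8 genes were called by edgeR and by DESeq2, beside 11.1% of all genes. Gja1 ranged from 11551 to 16602 (median 15262) against 14037 to 27752 (median 20825) in RV Sham-F, and its log2 value of -0.44 (95% confidence interval -0.84 to -0.03) had an unadjusted p of 0.0352 and an adjusted p of 0.147. Without the libraries across the midpoint, all of which are LV libraries, it was called (log2 -0.44, adjusted p = 0.0494). Without RV PAB-F replicate 4, 1 member was called as well. Jup had a log2 value of -0.25 (adjusted p = 0.139). The other 6 genes had an unadjusted p above 0.05. In the unloaded LV, PAB gave 0 of 8 calls at either stage, and 0% of all genes were called in LV PAB-H (305 at an unadjusted p under 0.05) as in LV PAB-F (454), with DESeq2 calling 0 too. The RV response to PAB-F less the LV response was called for none of the 8, beside 0.351% of all genes.

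Loading the LV with AOB gave no call at the H stage, where 0.0167% of all genes were called, and Tjp1 had the largest value (log2 0.49, 95% confidence interval 0.07 to 0.91, adjusted p = 0.188). In LV AOB-F, 3 of 8 genes were called, beside 12.9% of all genes. Tjp1 ranged from 1511 to 4443 (median 2047) against 1145 to 4210 (median 1373) in LV Sham-F (log2 0.67 ± 0.19 SE, adjusted p = 0.0132). Gja1 ranged from 7070 to 19052 (median 8472) against 5225 to 10785 (median 8131) (log2 0.58 ± 0.19 SE, adjusted p = 0.0335). Pkp2 ranged from 968 to 3131 (median 1587) against 998 to 1591 (median 1241) (log2 0.52 ± 0.14 SE, adjusted p = 0.0108). Cdh2 was near the threshold (log2 0.44, adjusted p = 0.0588) and was called by DESeq2 (adjusted p = 0.0462). For all 4 genes the groups overlapped. Gja1 lost its call without LV AOB-F replicates 5, 6 or 7 (adjusted p of 0.0977, 0.0935 and 0.154), without LV Sham-F replicates 1, 7 or 9 (0.0535 to 0.0611) and without a filter on low counts (0.0609). Pkp2 lost it without LV AOB-F replicates 6 or 7 (adjusted p of 0.0595 and 0.106), and Tjp1 without LV AOB-F replicate 1 (log2 0.51, adjusted p = 0.0823). Macrophage markers were higher in LV AOB-F for 3 of 7 genes (median log2 0.89), and endothelial, mural, atrial cardiomyocyte and Schwann cell markers for 1 gene each, and their part in these values was not tested. Gja1, Pkp2 and Tjp1 had the opposite sign in the LV with stage, and both comparisons use the LV Sham-F libraries.

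The LV AOB-F libraries separated by sex for Gja1 and Pkp2, which was seen before it was tested. In the 3 females Gja1 was 15280, 17594 and 19052, above all 5 female and 4 male LV Sham-F libraries. In the 4 males it was 7070, 7157, 7739 and 8472, within the range of LV Sham-F males (5225 to 8790). Pkp2 showed the same split, with 1979, 2564 and 3131 in females and 968, 1198, 1239 and 1587 in males. LV Sham-F females had 998 to 1557 and males 1081 to 1591. Higher Gja1 in AOB-F females was not confined to the loaded LV. In RV AOB-F it was 23299 to 27629 in females and 15370 to 20304 in males. RV Sham-F females had 15710 to 27752 and males 14037 to 22121. Pkp2 in RV AOB-F was 2405 to 3014 in females and 1847 to 2418 in males. RV AOB-F against RV Sham-F called 2.02% of all genes in females and 0.00837% in males, and the sex difference 0.209%.

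Within females the LV AOB-F contrast called 26.3% of all genes, among them Gja1 (log2 1.10, adjusted p = 0.000191), Pkp2 (log2 1.03, adjusted p = 2.97e-06), Cdh2 (log2 0.83, adjusted p = 0.00178), Gja5 (log2 0.85, adjusted p = 0.0206) and Tjp1 (log2 0.62, adjusted p = 0.0406). Within males edgeR called 0% (747 genes at an unadjusted p under 0.05), and the values were 0.00 for Gja1, -0.03 for Pkp2 and 0.06 for Cdh2. The difference between the sexes was called for 3.36% of all genes, including Gja1 (log2 1.10, adjusted p = 0.0338) and Pkp2 (log2 1.06, adjusted p = 0.00374). It was not called for Cdh2 (log2 0.77, adjusted p = 0.115). Without LV AOB-F replicate 7, a female, neither difference was called (Gja1 log2 1.02, adjusted p = 0.181, and Pkp2 log2 0.89, adjusted p = 0.0738). The Gja1 difference was also not called without LV AOB-F replicates 3, 4 or 6, without LV Sham-F replicates 3, 4, 7 or 9, or without a filter on low counts (log2 1.04, adjusted p = 0.0691). Without the libraries across the midpoint, a female of LV AOB-F among them, both were (Gja1 log2 1.08, adjusted p = 0.00193, and Pkp2 log2 1.21, adjusted p = 2.53e-05).

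Tjp1 had another pattern. LV AOB-F males had 1511, 3512, 3887 and 4443 and females 1726, 2023 and 2047, so that the 3 highest libraries were males, and the difference between the sexes in its response was a log2 value of 0.09 (adjusted p = 0.913). In LV AOB-F replicates 6 and 7, both female, ventricular cardiomyocyte markers took 5.30% and 5.65% of the counts, the lowest shares among the LV AOB-F libraries. The endothelial share was 0.226% to 0.335% in the 3 females and 0.386% to 0.462% in the 4 males, and its part in the sex difference was not tested. In the unloaded RV, 0 of 8 genes were called in AOB-F (0.0669% of all genes) and 0 of 8 in AOB-H (0%, 171 genes at an unadjusted p under 0.05). DESeq2 called 0 of the 8 in each as well. The LV response to AOB-F less the RV response was called for 0% of all genes (1161 at an unadjusted p under 0.05), with Tjp1 at a log2 value of 0.68 (95% confidence interval 0.14 to 1.22, adjusted p = 0.472). Without LV Sham-F replicate 3, the library of high Tjp1, 1 member was called there.

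**Figure D4:**
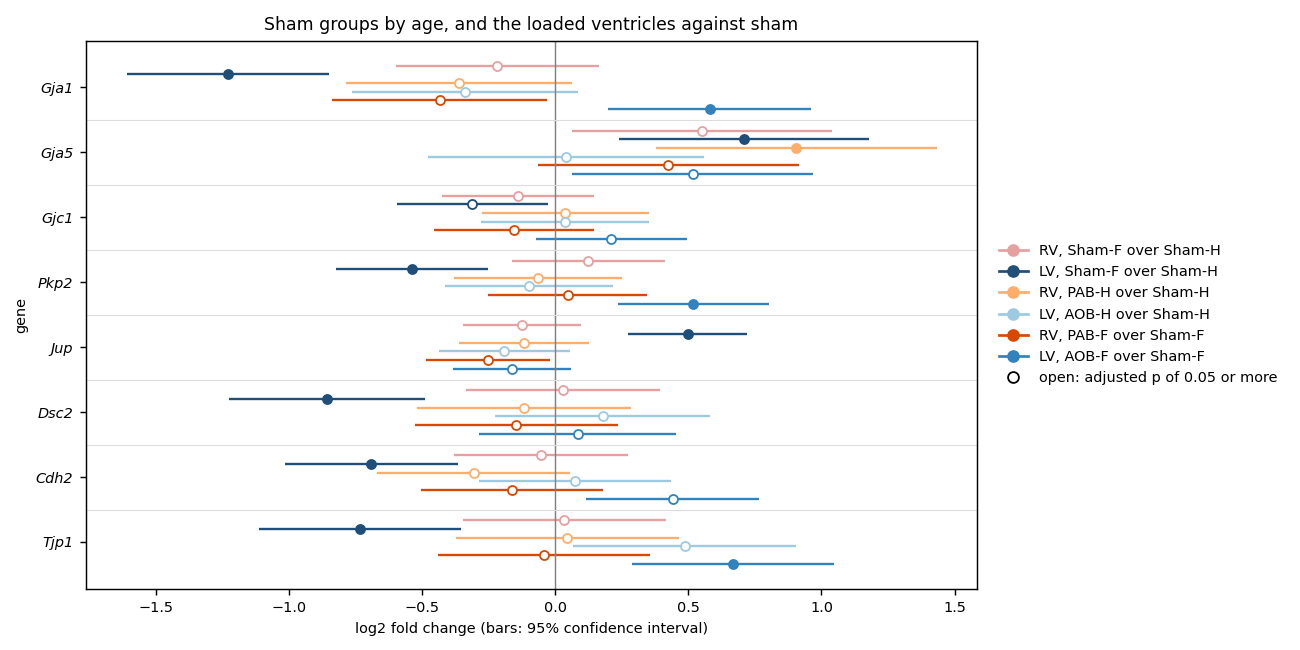
Log2 fold changes with 95% confidence intervals (bars) for Sham-F over Sham-H in each ventricle and for the loaded ventricle over its sham group, with open circles for an adjusted p of 0.05 or more. Dark blue points mark the LV with stage, from -1.23 for Gja1 to 0.71 for Gja5, and mid-blue points LV AOB-F, filled for Gja1, Pkp2 and Tjp1.

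**Figure D5:**
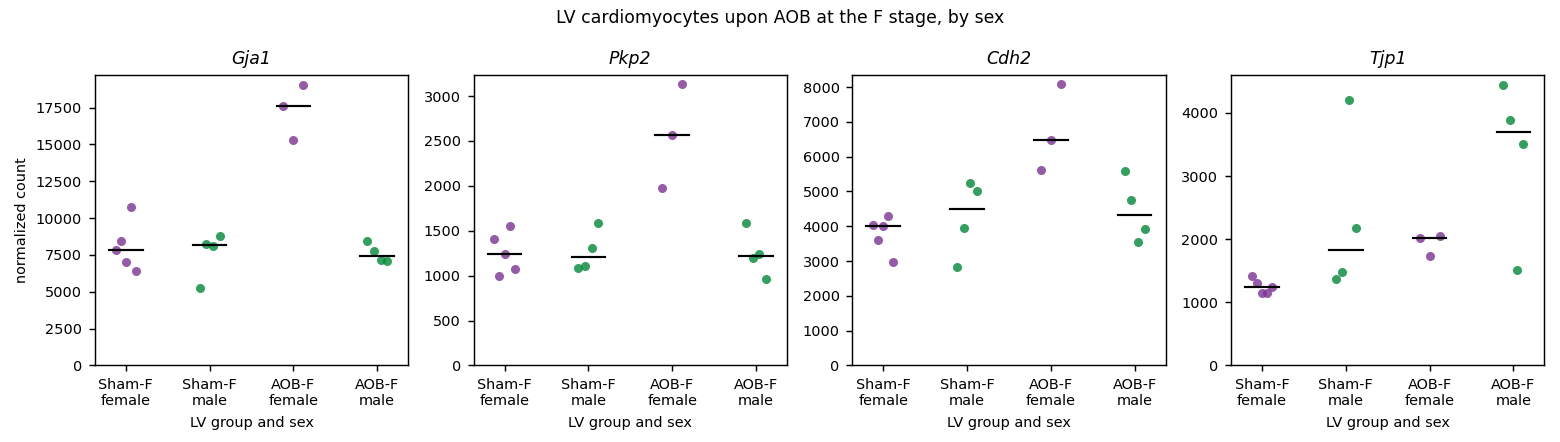
Normalized counts (linear axis from 0) of 4 genes in LV Sham-F and LV AOB-F, split into females (purple) and males (green), with a bar at the median. The 3 AOB-F females lie at 15280 to 19052 for Gja1 and above all other points for Pkp2. For Tjp1, 3 AOB-F males lie above the AOB-F females, and the highest Sham-F male reaches 4210.

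Other disc genes were followed in lists that hold none of the 10 members. For RV against LV in Sham-F, 6 of 8 adherens junction partners were called, 3 higher in the RV and 3 lower, with a median log2 of -0.10 against -0.07 over all genes. This and the counts of the next lists stand beside 74.3% of all genes called in that comparison, so that the share of partners called was near the background. Ctnna1, the α-catenin that ties cadherin complexes to actin, was higher in the RV (log2 1.03), as was Vcl (vinculin, log2 0.81), while the nectin gene Pvrl2 was lower (log2 -1.48). The 2 partners not called were Ctnnb1 (log2 -0.15, adjusted p = 0.0965) and Ctnnd1 (log2 -0.04). Of 9 disc channel and scaffold genes 6 were higher and 1 lower in the RV (median log2 1.002). Kcnj2, the inward rectifier channel gene, had a log2 value of 1.21 and Fgf13, a sodium channel partner, 1.67. Of 8 linkers to the cytoskeleton 6 were higher and 1 lower in the RV (median log2 0.59), led by Lmo7 (log2 1.02), Fermt2 (log2 0.89) and Xirp2 (log2 2.27). Des, the intermediate filament that desmosomes anchor, was the lower one (log2 -0.73), named after its value was seen.

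In the LV with stage these lists counted 2 higher and 3 lower of 8 partners, 1 higher and 5 lower of 9 channel and scaffold genes, and 1 higher and 6 lower of 8 linkers, beside 57.4% of all genes called in either direction. In LV AOB-F, where 12.9% of all genes were called, 2 of 8 partners, Ctnna1 (log2 0.46) among them, and 3 of 8 linkers (Fermt2, log2 0.55, Xirp2, log2 1.16, and Svil, log2 0.37) rose and no channel gene was called. In RV PAB-H no gene of the 3 lists was called, beside 4.5% of all genes. In RV PAB-F, where 11.1% of all genes were called, 0 of 8 partners, 2 of 9 channel and scaffold genes and 1 of 8 linkers were. Tmem65 (log2 -0.69) and Fgf13 (log2 -0.60) fell and Flnc (log2 0.70) rose. These few calls are not read as a response of the lists.

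Of 17 other connexin, desmosomal and cadherin genes with a row, 9 had counts enough to be tested. In Sham-F, Gja3 (connexin 46) was higher in the RV (log2 0.87), and Gja4 (connexin 37, an arterial endothelial connexin) was lower (log2 -2.48), as were Cdh5 (VE-cadherin, log2 -1.62) and Pkp3 (log2 -1.89). Gja4 and Cdh5 also stand in the endothelial marker lists. Gja3 fell in RV PAB-H (log2 -0.60, adjusted p = 0.0349) and in RV PAB-F (log2 -0.76, adjusted p = 0.00142), comparisons with different sham groups.

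Deviations from the group means were correlated between members over 82 libraries, as a description across libraries that share depth and composition. Cdh2 went with Gja1 (Pearson r = 0.82), Pkp2 (r = 0.79) and Dsc2 (r = 0.76), and Gja1 with Pkp2 (r = 0.69). Over 10177 genes the 99th percentile of r was 0.795 with Cdh2, 0.703 with Gja1 and 0.706 with Pkp2. Only Gja1 passed that level of Cdh2, and Gja1 with Pkp2 passed neither of theirs. These values are therefore not read as a trait of the junction genes. They include the LV libraries across the midpoint. Gja5 went with Gjc1 (r = 0.51), Gjc1 against Pkp2 (r = -0.60), and Jup against Dsc2 (r = -0.40). Among 10177 genes with a mean FPKM of at least 1, those most like Gja1 were Celf1 (r = 0.82), Cdh2 and Meis2 (r = 0.82). For Gja5 they were Ace (r = 0.79), Srpx (r = 0.75) and F11r (r = 0.73), for Pkp2 Cct2 (r = 0.84), Cap2 (r = 0.84) and Cct5 (r = 0.83), and for Cdh2 Sorbs2 (r = 0.90), Man1a2 (r = 0.88) and Klhl41 (r = 0.87). The summed arterial endothelial markers ran against Cdh2 (r = -0.84), Pkp2 (r = -0.84), Gja1 (r = -0.79) and Dsc2 (r = -0.60) and with Gjc1 (r = 0.61) and Gja5 (r = 0.44). Gja5 went with the mural markers (r = 0.69) and the endothelial markers (r = 0.63) and against the ventricular cardiomyocyte markers (r = -0.62).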

How the data were processed

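The table deposited for 82 libraries of isolated rat cardiomyocytes gives 3 measures for 17337 genes. The authors trimmed reads (Trim Galore), aligned them with STAR to Rnor6.0 in the nf-core pipeline and counted them per gene with featureCounts, and all tests here start from these deposited raw counts. The deposited normalized counts, a signal per gene, are those counts over a DESeq2 (version 1.28.1) size factor of 0.639 to 1.571. FPKM values made by the authors served here for levels between genes.

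The members and gene lists were chosen with earlier results of these data known. Raw counts were fitted with edgeR 4.0.16 (R 4.3.3) in a quasi-likelihood model with 12 group means over all 82 libraries, TMM factors and filterByExpr (11954 genes), and p-values were adjusted over all genes tested. A gene was called at an adjusted p under 0.05, and 19 comparisons were made. Replicates are separate animals. RV and LV libraries of 1 number come from 1 animal by the labels, and their deviations from the group means had a median r of 0.186 to 0.297 per condition, against -0.069 to -0.014 for different animals. The smallest difference between any 2 libraries was a chi-square of 4.04 per gene, so none was a copy.

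The members are named wherever they are called and elsewhere by count and range, and of each partner, channel and linker list the 3 called genes of lowest p, and of the other isoforms those with a mean of at least 1 FPKM, with exceptions said in the text; some genes of these lists are not reported here by name. Alternatives were RLE factors, DESeq2 1.42.0, no filter on low counts, sex as a covariate, a correction for gene length, blocks by animal and by replicate number, and each library left out in turn. The split by sex and the fit without 5 LV libraries across the midpoint were added after seeing the data. On simulated counts, 180 of 200 genes given a log2 change of 1 between RV and LV of Sham-F were found, with 10 others called among 11667 genes. The simulation gave every gene the same dispersion, with no animal effect and no library unlike its group. Its figures therefore do not carry over to the real comparisons, to smaller groups or to smaller changes. Library depth limits precision most for Gja5, whose raw counts were 48 to 608. Gene positions in Rnor6.0 were not used here.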

Additional observations from a re-analysis of the deposited data

Results flagged for a closer look

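The change with stage in sham-operated animals differed between the ventricles by a test of the difference itself for Gja1 (log2 1.013, RV change minus LV change), Dsc2 (0.89), Tjp1 (0.77), Pkp2 (0.66), Cdh2 (0.64) and Jup (-0.62). The response of the LV to AOB-F differed between females and males for Gja1 (log2 1.10, females minus males) and Pkp2 (1.06), in a split made after the values were seen, with 3 females and 4 males banded. Both differences lost their call without LV AOB-F replicate 7.

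A single library lay far from the rest of its group in 15 of 96 sets of 1 gene in 1 group. The cut-off would flag about 1 in 20 sets of independent, normally distributed values. These sets share libraries and hold correlated genes, so the count cannot be compared with chance. LV PAB-H replicate 2 was low for Gja1 (5194), Dsc2 (192), Cdh2 (2939) and Tjp1 (1275). LV PAB-F replicate 5 was high for Gja1 (14417), Pkp2 (2077), Dsc2 (507) and Cdh2 (7231). Both are among the 5 LV libraries across the midpoint of the first principal component. LV AOB-H replicate 6, the shallowest library with 6675287 counts and the highest endothelial share (0.561%), was high for Gja5 (484) and Gjc1 (442) and low for Pkp2 (1110). Jup was low in RV AOB-H replicate 6 (4912) and high in LV Sham-F replicate 2 (13414) and RV PAB-F replicate 4 (6025), and Tjp1 was high in LV Sham-F replicate 3 (4210). Whether these libraries differ by handling, by animal or by label was not tested.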

How the results depend on the processing

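No call of a member changed direction under any alternative run. Of 286 refits of the 40 called values with another setting, 279 kept the call, and of 701 refits without 1 library, 674. Counts of members called moved by more than 1.5 times, or to or from 0, as follows. Without the libraries across the midpoint, 0 were called for RV against LV in Sham-H (3 otherwise), 1 in AOB-H (0 otherwise) and 1 for RV PAB-F (0 otherwise), and over all genes 334 were called for RV against LV in Sham-H in place of 2510. In Sham-H that choice moves the ventricles together by itself. For RV PAB-H, 0 were called without a filter on low counts or with sex as a covariate (1 otherwise). Without that filter 1 difference between the sexes in LV AOB-F was called (2 otherwise).

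With the animal as a replicate block, 1 member was called for RV against LV in AOB-H (0 otherwise), 4 in Sham-H and 8 in Sham-F, and no other count of members changed. Numbers shared across conditions mark different animals, whose deviations had a median r of -0.103 to 0.160, and the block by number changed no count of members by more than 1.5 times.

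Without 1 library at a time, counts for RV against LV ranged from 0 to 3 in Sham-H, 0 to 0 in PAB-H, 0 to 1 in AOB-H, 7 to 8 in Sham-F, 7 to 7 in PAB-F and 5 to 6 in AOB-F. With stage they ranged from 0 to 0 in the RV, 7 to 8 in the LV and 5 to 6 for the difference. Upon banding they ranged from 0 to 1 in RV PAB-H, 0 to 1 in RV PAB-F, 1 to 4 in LV AOB-F, 0 to 1 for the difference between the ventricles in AOB-F and 0 to 2 for the difference between the sexes there, and were 0 in the others. In LV AOB-F, Gja1 lost its call without replicates 5, 6 or 7 of the banded group or 1, 7 or 9 of the sham group, Pkp2 without banded replicates 6 or 7, and Tjp1 without banded replicate 1. The cause was not tested.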
